A study of Mus musculus with 12 samples.

Results

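The 10 genes described here belong to cytokine signaling through Janus kinases and STAT proteins. They are the feedback inhibitors Cish, Socs1, Socs2 and Socs3, the receptor genes Lepr, Ghr and Il6st, and the transcription factor genes Stat3, Stat5a and Stat5b. They were listed by name out of 53700 Ensembl genes and chosen by the lower counts of Cish and Lepr in hearts without cardiomyocyte CYB5R3, so the difference between the groups is given for them as a description, with no p-value. All 10 were matched by symbol and passed the filter on low counts, as did 17847 genes in all. RNA was sequenced from the whole hearts of 6 ac-WT mice (CYB5R3wt/wt, Myh6-CreERT2) and 6 ac-CYB5R3–KO mice (CYB5R3fl/fl, Myh6-CreERT2; knockout hearts below), all male by the study's methods. Both groups carried the Cre transgene and both received tamoxifen (33 mg/kg per day over 5 days), which was begun at an age between 10 and 13 weeks, with hearts collected 5 days after treatment. The Cre recombinase is driven by the Myh6 promoter of cardiomyocytes, so fibroblasts, vessels and blood cells of the knockout hearts keep an intact Cyb5r3, and a whole-heart library mixes all of them. No group without tamoxifen or without Cre was among the samples. Replicates were separate mice.

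Receptors of this class have no kinase of their own. Binding of a cytokine brings together the Janus kinases held by the receptor chains, these phosphorylate the receptor, and STAT proteins dock there, are phosphorylated in turn and enter the nucleus. Among the genes they switch on are those of the SOCS family, whose proteins bind the activated receptors or kinases and end the signal. In the heart, gp130 (the product of Il6st) is the shared chain for the interleukin-6 family and signals mainly through STAT3, while the growth hormone receptor acts mainly through STAT5 and its targets Cish and Socs2.

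STAT proteins bind DNA at a palindrome, TTCNNNGAA, which reads the same on both strands, and the start regions of 2 SOCS genes held it. They are shown because Cish was one of the genes the list was chosen on and Socs3 was the only other member whose window held the palindrome. RefSeq start windows (GRCm38.p6, 250 bases before to 50 bases after the gene start) were given for 9 of the 10 genes, in 13 windows. In the lines below, capitals mark each match to the palindrome.
Cish (chr9:107296409-107296708, plus strand): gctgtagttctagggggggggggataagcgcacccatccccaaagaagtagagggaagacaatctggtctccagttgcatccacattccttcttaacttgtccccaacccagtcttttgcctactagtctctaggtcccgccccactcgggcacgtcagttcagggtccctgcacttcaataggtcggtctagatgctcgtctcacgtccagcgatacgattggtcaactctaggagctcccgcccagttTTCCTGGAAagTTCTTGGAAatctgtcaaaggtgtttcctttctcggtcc
Socs3 (chr11:117969317-117969616, minus strand): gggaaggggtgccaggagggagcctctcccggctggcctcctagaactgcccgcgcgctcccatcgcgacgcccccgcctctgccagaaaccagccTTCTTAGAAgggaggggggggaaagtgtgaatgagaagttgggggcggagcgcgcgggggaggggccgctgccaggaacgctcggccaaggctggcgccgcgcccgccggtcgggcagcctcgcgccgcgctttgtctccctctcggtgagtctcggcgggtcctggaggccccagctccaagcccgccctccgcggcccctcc
Cish held 2 matches, TTCCTGGAA and TTCTTGGAA, at positions 1 to 9 and 12 to 20 counted from the first base of the annotated gene. Socs3 held TTCTTAGAA at positions -154 to -146. The palindrome occurred at least once in 8.3% of all 32851 windows and at least 2 times in 0.457% of them. The windows of Socs1, Lepr, Ghr, Il6st, Stat3, Stat5a and Stat5b held no match, which says only that these letters were not in those 300 bases.

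Between 43393183 and 53754284 reads were counted per heart. Cyb5r3, the targeted gene, was lower in every ac-CYB5R3–KO heart than in any ac-WT heart, with 53.8 ± 9.07 CPM against 126 ± 38.4 CPM (all means are given with the SD of n = 6 mice). CPM here is the count scaled to library size with TMM factors, which set each library so that the bulk of genes is level between libraries. By total counts, without these factors, ac-WT mice 2 and 3 lay at 46.6 and 67.6 CPM of Cyb5r3, within or below the 47.3 to 75.4 CPM of knockout hearts, and the other 4 ac-WT mice at 109 CPM or more. The libraries of ac-WT mice 2 and 3 stood apart, with TMM factors of 0.570 and 0.723 against 0.988 to 1.22 in the other hearts. Their 12 cardiomyocyte markers summed to 58610 and 45160 CPM, against 18420 to 30950 CPM in the other 10 hearts. Their 10 fibroblast markers summed to 2403 and 2442 CPM, the lowest values of all hearts. Values without these 2 hearts are given beside the results they moved most, and the cause of their difference was not tested. In whole-heart RNA, fewer cells of a type and less RNA per cell cannot be told apart.

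Of the 10 genes, 9 were lower and 1 higher in knockout hearts by edgeR fold change, where 51.2% of all tested genes were lower by any amount. Scaled by total counts, 3 were lower (Cish, Socs3 and Lepr), but that scaling moved the median of all genes by 0.26 on the log2 scale, and relative to this shift 9 were again lower. An unadjusted p under 0.01 in the lower direction was reached by 2 of the 10 (Cish and Lepr, the pair the list was built on), as by 3.27% of all genes. An adjusted p under 0.05 in edgeR was reached by 0 of the 10, against 0.101% of all genes, while DESeq2 placed both Cish and Lepr under it, where it called 1.68% of all genes as lower, and limma-voom placed 0, where it called 0.0112%. An unadjusted p under 0.05 in edgeR was likewise reached by 2, both lower, as by 9.73% of all genes in that direction. Lepr alone had groups that did not overlap, as did 1.04% of all genes in the lower direction. Since the rule used this contrast, nothing is read from these counts.

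**Figure D1:**
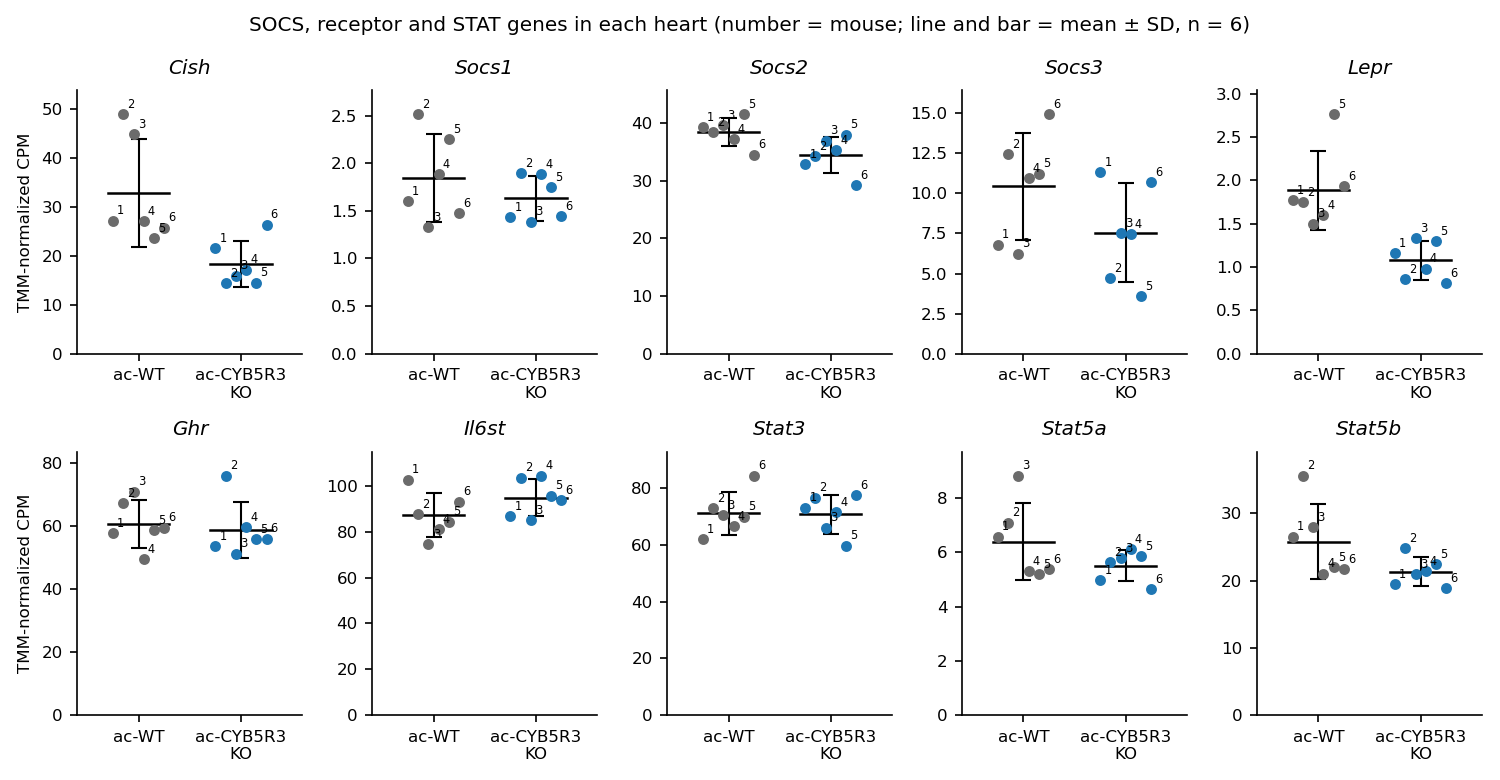
TMM-normalized CPM of the 10 genes in each heart, with ac-WT mice in grey and ac-CYB5R3–KO mice in blue, mouse numbers beside the points, and lines and bars for mean ± SD (n = 6 per group). Lepr is the gene whose groups lie apart, at 1.5 to 2.76 CPM against 0.814 to 1.34 CPM, and Cish of ac-WT mice 2 and 3 lies at 48.9 and 44.9 CPM above all other hearts.

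Cish, a STAT5-induced inhibitor that binds activated cytokine receptors, was lower in knockout hearts by an amount that depended on the processing. In ac-WT hearts it ran from 23.6 to 48.9 CPM with a median of 27.1, and in knockout hearts from 14.3 to 26.3 CPM with a median of 16.5. In the latter, mice 2, 3, 4 and 5 lay between 14.3 and 17.1 CPM, mouse 1 was at 21.5 CPM, and mouse 6, at 26.3 CPM, lay inside the ac-WT range. The mean was 32.9 ± 11.0 CPM against 18.3 ± 4.73 CPM, so knockout hearts held 55.6% of the ac-WT mean (log2 fold change -0.84, SE 0.21). Part of the ac-WT spread came from mice 2 and 3 (48.9 and 44.9 CPM), and the other 4 ac-WT mice lay within 23.6 to 27.2 CPM. Without mice 2 and 3 the log2 fold change was -0.49, and with 1 surrogate variable as a covariate -0.46. Scaled by total counts instead, the 6 ac-WT hearts lay close together at 26.5 to 32.4 CPM, and knockout hearts at 16.1 to 29.4 CPM, a log2 fold change of -0.49, or -0.75 relative to the shift of the median gene.

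Socs2, which restrains growth hormone signaling and is itself induced by STAT5, had a narrow range under TMM scaling. It ran from 34.5 to 41.5 CPM (median 38.8) in ac-WT and from 29.2 to 38.0 CPM (median 34.8) in knockout hearts. The groups overlapped, with 3 of 6 knockout hearts below the lowest ac-WT heart, and the log2 fold change was -0.16 (SE 0.09), or 0.11 by total counts. By total counts ac-WT hearts spread from 21.9 to 46.8 CPM of Socs2, wider than for Cish. The ratio of Cish to Socs2 counts within a library, which needs no scaling between libraries, had a mean log2 value of -0.28 ± 0.45 in ac-WT and -0.94 ± 0.47 in knockout hearts. This ratio was -0.15 in knockout mouse 6 and -1.39 to -0.61 in the other 5, and it overlapped the ac-WT values of -0.82 to 0.35. It was highest in ac-WT mice 2 and 3 (0.35 and 0.18), and without them the ac-WT mean was -0.56 and the difference between groups -0.38 in place of -0.66.

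Socs3, the inhibitor that STAT3 induces and that binds gp130, was the member with the widest relative spread in knockout hearts. It ran from 6.24 to 15 CPM (median 11.1) in ac-WT and from 3.59 to 11.3 CPM (median 7.5) in knockout hearts, where mice 2 and 5 were lowest (4.71 and 3.59 CPM) and mice 1 and 6 highest (11.3 and 10.7 CPM). The groups overlapped widely, and the log2 fold change of -0.47 had an SE of 0.29. Socs1, which blocks Janus kinases directly, was at a low level, with 48 to 110 counts per library. It ran from 1.33 to 2.52 CPM (median 1.75) in ac-WT and from 1.39 to 1.89 CPM (median 1.6) in knockout hearts, with no knockout heart below the ac-WT range and a log2 fold change of -0.17 (SE 0.18).

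Lepr, the leptin receptor gene, had the lowest level per length of the 10 genes, with 50 to 135 counts in ac-WT and 40 to 79 counts in knockout hearts, so that counting error adds to the spread between mice. In normalized terms it ran from 1.5 to 2.76 CPM (median 1.76) in ac-WT and from 0.814 to 1.34 CPM (median 1.07) in knockout hearts. Every knockout heart lay below every ac-WT heart. The mean was 1.89 ± 0.456 CPM against 1.07 ± 0.222 CPM, 57.0% of the ac-WT mean and a log2 fold change of -0.81 (SE 0.19). It was -0.89 without ac-WT mice 2 and 3 and -0.67 without ac-WT mouse 5, the highest heart at 2.76 CPM. By total counts the fold change was -0.58 on the log2 scale, or -0.84 relative to the median gene, and the groups then overlapped, because ac-WT mice 2 and 3 lay at 0.995 and 1.08 CPM within the 0.911 to 1.63 CPM of knockout hearts.

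Leprot, the gene next to Lepr in the RefSeq annotation and a regulator of its display at the cell surface, was not lower in knockout hearts. It had 41.4 ± 10.1 CPM in ac-WT and 48.2 ± 1.89 CPM in knockout hearts (log2 fold change 0.22, SE 0.14, with an adjusted p of 0.495 in edgeR), and the log2 fold change was 0.04 without ac-WT mice 2 and 3. The log2 ratio of Lepr to Leprot counts within a library separated the groups, at -4.87 to -4.05 in ac-WT and -5.86 to -5.13 in knockout hearts. Against Cdh5, a cadherin of endothelial cells, the same ratio was -5.80 ± 0.63 and -6.63 ± 0.12, with overlap. Counts per gene do not tell the long, signaling form of the receptor from its short forms.

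Ghr, the growth hormone receptor gene, ran from 49.5 to 70.9 CPM (median 59.1) in ac-WT and from 51.3 to 76.0 CPM (median 56.0) in knockout hearts. The ranges lay over each other, with knockout mouse 2 at the top, and the log2 fold change was -0.04 (SE 0.12), or 0.07 without ac-WT mice 2 and 3. Il6st, the gp130 gene, was the one member with a higher mean in knockout hearts. It ran from 74.7 to 103 CPM (median 86.1) in ac-WT and from 85 to 105 CPM (median 94.8) in knockout hearts, which overlapped, and the log2 fold change was 0.12 (SE 0.10). Across the 3 receptors, then, Lepr had separate groups, while Ghr and Il6st had fold changes within or close to their SE.

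Of the STAT genes, which lie next to each other on chromosome 11 in the RefSeq annotation, Stat3 differed least. It ran from 62.1 to 84.5 CPM (median 70.3) in ac-WT and from 59.8 to 77.5 CPM (median 72.3) in knockout hearts (log2 fold change -0.01, SE 0.10). Stat5b ran from 21.0 to 35.6 CPM (median 24.2) in ac-WT and from 18.9 to 24.8 CPM (median 21.2) in knockout hearts. Its groups overlapped, and its log2 fold change of -0.27 (SE 0.13) became -0.08 without ac-WT mice 2 and 3 and 0.05 by total counts. Stat5a behaved alike at a lower level, from 5.2 to 8.82 CPM (median 5.97) in ac-WT and from 4.64 to 6.12 CPM (median 5.71) in knockout hearts. Its log2 fold change was -0.22 (SE 0.14), -0.02 without those 2 mice and 0.10 by total counts. The log2 ratio of Stat5a to Stat5b counts was -2.01 ± 0.21 and -1.96 ± 0.12, so the balance of both STAT5 genes differed by less than the spread between mice. Whether reads were assigned by strand is not given in the sources used here, and noncoding genes overlap Stat3 and Socs2 in RefSeq, so reads of both may be counted together.

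**Figure D2:**
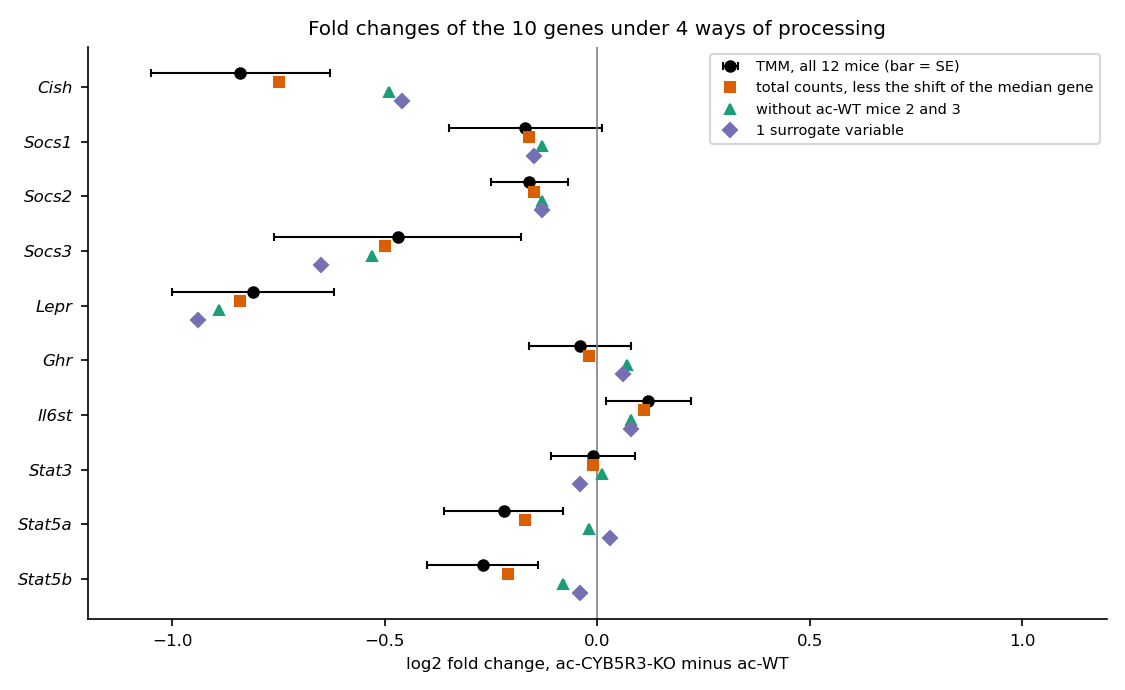
Log2 fold change (ac-CYB5R3–KO minus ac-WT) of each gene under 4 ways of processing: TMM with all mice (black, bar = SE), total counts less the shift of the median gene (orange), without ac-WT mice 2 and 3 (green) and with 1 surrogate variable (purple). Lepr stays between -0.94 and -0.81, Cish moves from -0.84 to -0.46, and Stat5a and Stat5b move from -0.22 and -0.27 to 0.03 and -0.04.

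Levels of different genes were compared per kilobase of exon, with exon lengths from the GENCODE annotation of NCBIM37 (mm9), which is not the annotation of the counts. In ac-WT hearts Il6st stood highest at 16.8 ± 1.87 CPM per kb, and its range lay above that of Stat3, the next gene, at 7.47 ± 0.792 CPM per kb. Stat3, Ghr (6.69), Cish (5.12), Stat5b (4.65), Socs2 (4.03) and Socs3 (3.61 CPM per kb) followed, and each of these overlapped its neighbor in this order. Socs1 (1.51) and Stat5a (0.897 CPM per kb) came next and overlapped each other. Lepr was last and apart, at 0.268 ± 0.0646 CPM per kb.

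**Figure D3:**
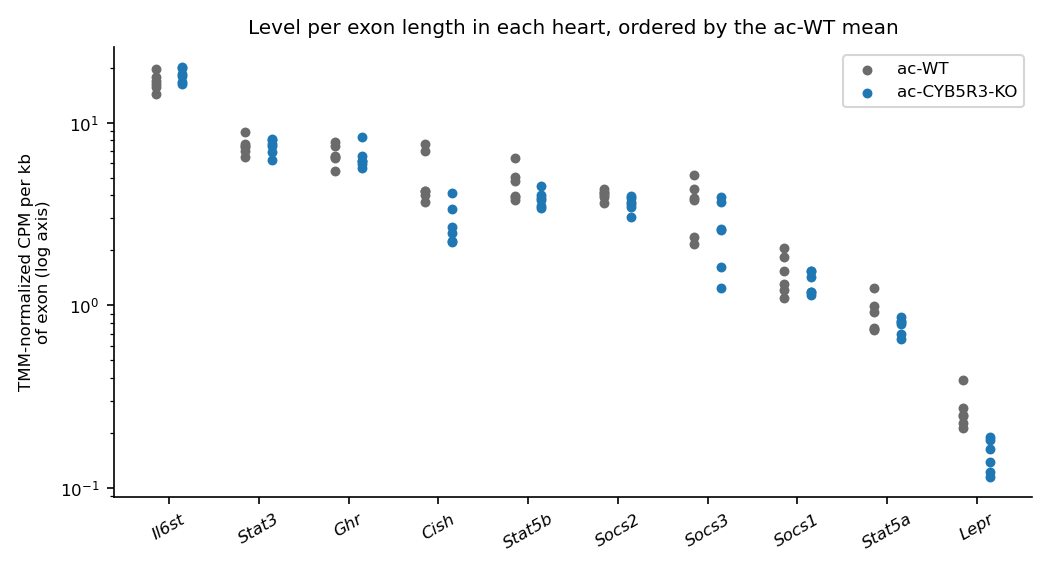
TMM-normalized CPM per kilobase of exon (log axis) in each heart, with ac-WT in grey and ac-CYB5R3–KO in blue and genes ordered by the ac-WT mean. Il6st lies above and Lepr below all others, at ac-WT means of 16.8 and 0.268 CPM per kb.

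How much a gene varied between mice of a group is a measure that the choice of genes did not use. The coefficient of variation (SD over mean) of Socs2 was 6.25% in ac-WT hearts, where 2.43% of the 3863 genes within 2-fold of its level varied less, and 9.15% in knockout hearts, where 39.3% did. In ac-WT hearts it was 24.8% by total counts, where 38.0% of these genes varied less, so the low value rested on the scaling. Socs3 varied widely under both scalings. Its coefficient was 32.1% in ac-WT and 41.0% in knockout hearts, where 97.4% of the 5597 genes of like level varied less and their median was 12.2%. By total counts these coefficients were 46.0% and 39.8%. Cish varied by 25.9% in knockout hearts, more than 91.4% of genes of like level, and by 25.3% there by total counts. In ac-WT hearts its coefficient of 33.5% rested on mice 2 and 3, since it was 6.43% without them and 7.52% by total counts with all 6 mice. In Il6st the coefficient was 11.2% in ac-WT and 8.63% in knockout hearts, and 12.1% and 31.6% of genes of like level varied less. Its ac-WT coefficient was 29.2% by total counts, where 52.7% of these genes varied less, so this low value rested on the scaling too. Lepr, at 24.2% and 20.7%, varied about as genes of its level did, whose medians were 31.9% and 22.5%.

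Relations between genes across the mice of a group do not use the contrast either, and 6 pairs were examined in each group by Pearson's r and Spearman's rho on log2(CPM + 1), 12 relations in all, with a two-sided exact permutation test over 720 pairings and Benjamini-Hochberg adjustment. By r, 5 relations had an adjusted p under 0.05, and by rho 0 did (2 at an unadjusted p under 0.05). In knockout hearts Lepr followed Cdh5 (r = 0.929, exact permutation p = 0.00694, adjusted 0.0433; rho = 0.943, exact permutation p = 0.0167, adjusted 0.1; n = 6), with r = 0.923 without mice 3 and 6, the farthest from the Lepr median, and r = 0.951 by total counts. In ac-WT hearts no such relation was detected (r = -0.111, exact permutation p = 0.829, adjusted 0.829; rho = -0.143, exact permutation p = 0.803, adjusted 0.876), and whether the groups differ was not tested. Cish ran against its activator Stat5b in knockout hearts (r = -0.889, exact permutation p = 0.0125, adjusted 0.0433; rho = -0.943, exact permutation p = 0.0167, adjusted 0.1), and r was -0.943 without mice 2 and 6 but -0.740 by total counts, where the exact permutation p was 0.0819.

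The other relations with an adjusted p under 0.05 by r depended on single mice or on the scaling. In ac-WT hearts Stat5b rose with Cish (r = 0.877, exact permutation p = 0.0139, adjusted 0.0433; rho = 0.771, exact permutation p = 0.103, adjusted 0.247), but this rested on mice 2 and 3, without which r was 0.371, and by total counts r was -0.682. Ghr ran against Igf1, the growth hormone target, in ac-WT hearts (r = -0.895, exact permutation p = 0.0153, adjusted 0.0433; rho = -0.771, exact permutation p = 0.103, adjusted 0.247), and r was -0.891 without mice 3 and 4, yet by total counts the sign turned (r = 0.783). Cish and Socs2 ran against each other in knockout hearts (r = -0.889, exact permutation p = 0.0181, adjusted 0.0433; rho = -0.657, exact permutation p = 0.175, adjusted 0.300), which rested on mice 1 and 6, since r was -0.0957 without them. For Socs3 and Cish in knockout hearts the adjusted p missed the threshold (r = 0.864, exact permutation p = 0.0361, adjusted 0.0722; rho = 0.829, exact permutation p = 0.0583, adjusted 0.233), with r = 0.875 without mice 2 and 5. For Socs3 and Stat3 the r was 0.693 in ac-WT and 0.578 in knockout hearts (exact permutation p = 0.114 and 0.210, adjusted 0.195 and 0.315). It was 0.989 in ac-WT hearts without mice 1 and 3, and 0.745 in knockout hearts without mice 2 and 5. All points of a relation share their library's scaling.

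Among 13290 named genes those most like Cish were sought by the Pearson r of log2(CPM + 1) after the group means were subtracted, over all 12 mice and as a description. They were Zfp672 (r = 0.938), Tbrg4 (0.927), Rrp9 (0.923), Mrps26 (0.920) and Pirt (0.919). Mrps26 encodes a protein of the mitochondrial ribosome and Rrp9 a factor of ribosomal RNA processing. For the 9 other members r with Cish ran from -0.517 (Lepr) to 0.398 (Stat5b), far from these values. For Lepr the genes were 4930579G24Rik (r = 0.876), Ctbs (0.870), Haus4 (0.838), Gm13039 (0.832) and Anapc10 (0.826). The group means of each of these 5 differed by less than 1 ac-WT SD.

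**Figure D4:**
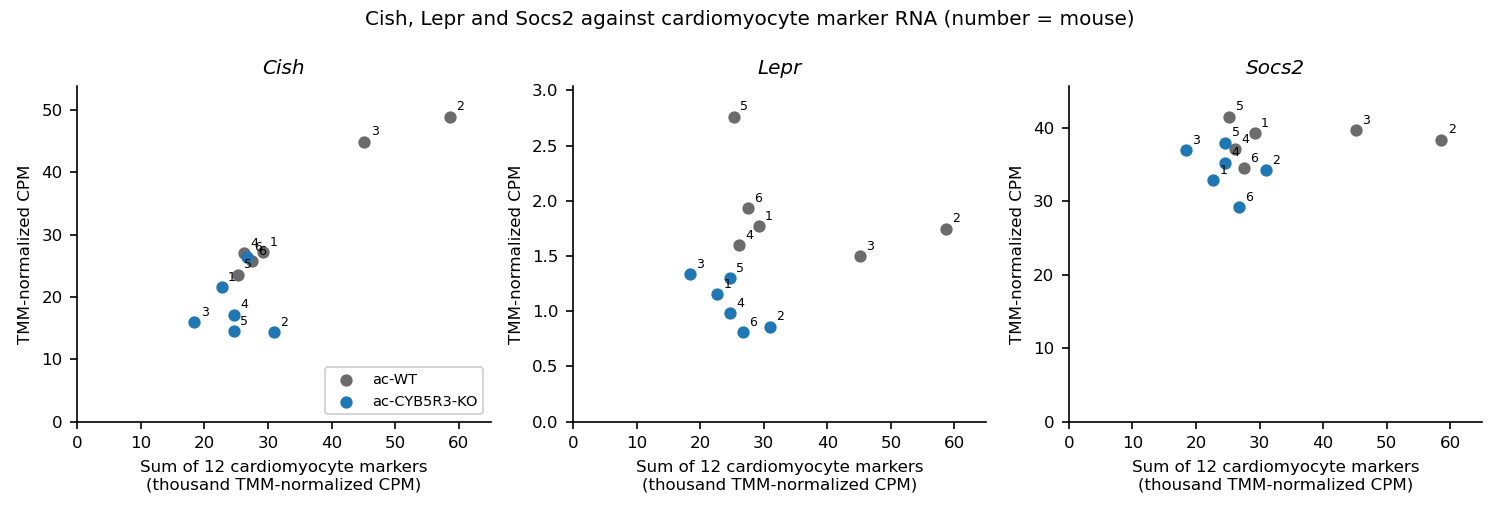
Cish, Lepr and Socs2 (TMM-normalized CPM) against the summed CPM of 12 cardiomyocyte markers in each heart, with ac-WT in grey, ac-CYB5R3–KO in blue and mouse numbers beside the points. In ac-WT mice 2 and 3 the markers reach 58610 and 45160 CPM and Cish is highest (48.9 and 44.9 CPM), while Lepr (1.75 and 1.5 CPM) and Socs2 (38.4 and 39.7 CPM) of these mice are not.

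Cell type markers moved beside these genes. Of 12 cardiomyocyte markers 4 fell at an unadjusted p under 0.01 and 0 rose (edgeR), and 2 fell without ac-WT mice 2 and 3. Their sum ran from 25270 to 58610 CPM in ac-WT and from 18420 to 30950 CPM in knockout hearts, and its part in the difference of Cish was not tested. Leptin receptor RNA is known from endothelial cells, and of 10 endothelial markers 0 passed in either direction at an unadjusted p under 0.01 or under 0.05 in edgeR, nor did any at an adjusted p under 0.05 in DESeq2 or limma-voom. Their sum was 915 to 1668 CPM in ac-WT and 924 to 1678 CPM in knockout hearts. Of the endocardial and lymphatic markers 3 of 7 rose and 1 fell at an unadjusted p under 0.01. At the same threshold 1 of 10 fibroblast markers, 2 of 7 mural cell markers and 1 of 9 macrophage and neutrophil markers fell, 1 of 5 tested lymphocyte markers rose, and 0 of 5 mesothelial and 0 of 5 red blood cell markers passed, although 3 red blood cell markers rose at an unadjusted p under 0.05 and 4 at a p under 0.01 without ac-WT mice 2 and 3. None of 7 adipocyte markers passed the count filter, and their sum was at most 4.65 CPM in any heart. At an adjusted p under 0.05, 0 genes of these lists passed in edgeR or limma-voom, while DESeq2 called 3 cardiomyocyte, 1 fibroblast, 2 mural and 1 macrophage marker as lower and 2 endocardial markers as higher.

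The rest of the pathway was read from lists by role, 124 genes of which 102 were tested. Of 28 ligand genes 12 passed the count filter, and Lep, Gh and Prl, the ligands of the leptin, growth hormone and prolactin receptors, had at most 1, 11 and 1 counts in any library. Il6 was at 1.14 ± 0.469 CPM in ac-WT and 1.74 ± 0.808 CPM in knockout hearts (log2 fold change 0.60, SE 0.33, with an adjusted p of 0.416 in edgeR), or 0.33 without ac-WT mice 2 and 3. Il15 was the 1 ligand with an unadjusted p under 0.05 (log2 fold change -0.42, SE 0.19, edgeR adjusted p = 0.330), and it moved to -0.17 without ac-WT mice 2 and 3.

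Among 29 tested receptor genes outside the 10, among the 4 Janus kinases and among the other 4 STATs, 0 genes had an unadjusted p under 0.05 in edgeR, and 0 had an adjusted p under 0.05 in DESeq2 or limma-voom. Their median log2 fold changes were -0.04 for the receptors and -0.04 for kinases and STATs, against -0.01 for all genes. Without ac-WT mice 2 and 3 these medians were -0.08 and -0.02, against 0.02 for all genes. In that edgeR fit the receptor genes Il6ra (-0.56, SE 0.19, unadjusted p = 0.0123) and Ifnar1 (-0.27, SE 0.09, unadjusted p = 0.0147) were lower. With all mice they were at -0.27 and -0.11. Jak1 and Jak2, the kinases of gp130 and of the growth hormone and leptin receptors, had log2 fold changes of 0.02 (SE 0.10) and 0.06 (SE 0.11). Lifr, the partner chain of gp130, had 23.4 ± 4.31 CPM and 19.6 ± 2.55 CPM (log2 fold change -0.26, SE 0.13, with an adjusted p of 0.365 in edgeR), or -0.11 without those mice. Of 20 other inhibitors and partners of the SOCS box, Elob alone had an unadjusted p under 0.05 (log2 fold change -0.38, SE 0.16, edgeR adjusted p = 0.282). It encodes elongin B, which links SOCS proteins to the ubiquitin machinery, and its fold change was -0.17 without ac-WT mice 2 and 3.

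**Figure D5:**
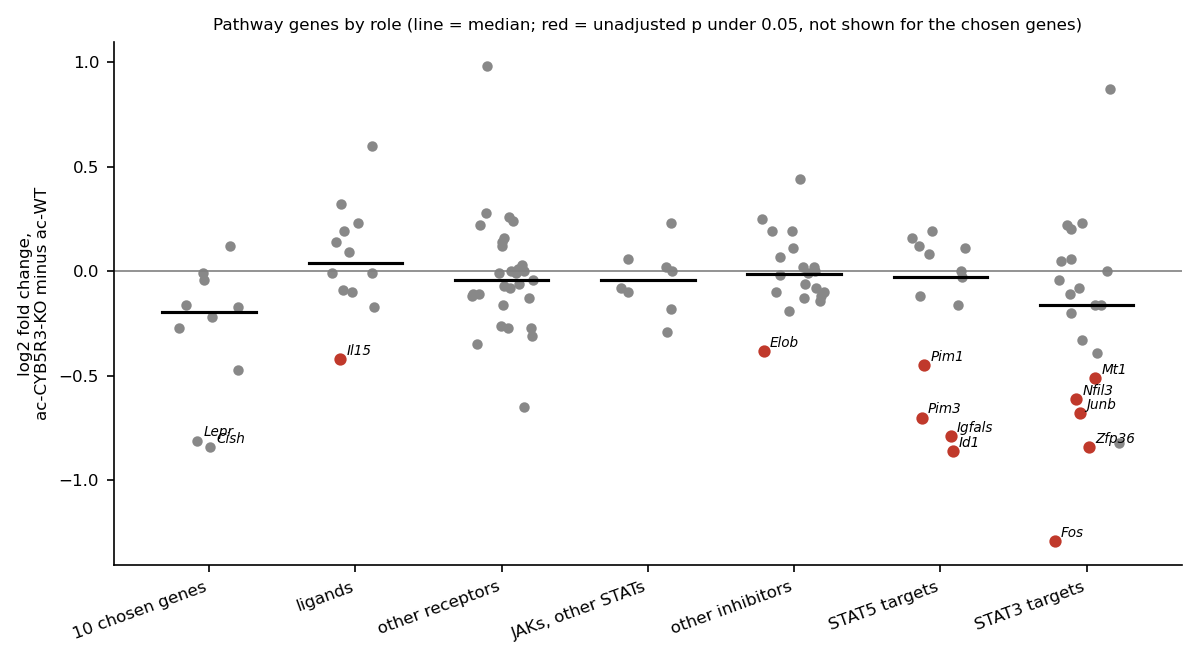
Log2 fold change (ac-CYB5R3–KO minus ac-WT) of the 10 genes and of the tested pathway genes by role, with a line for each median and red points for an unadjusted edgeR p under 0.05, which is not marked for the 10 genes. All 11 red genes lie below 0, and 9 of them are STAT target genes.

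With all mice, STAT target genes were most of the pathway genes at an unadjusted p under 0.05 in edgeR, and all of those were lower. Of 13 tested textbook targets of STAT5, 4 fell at an unadjusted p under 0.05 and 0 rose, and of 21 targets of STAT3, 5 fell and 0 rose, where 9.73% of all genes fell and 4.91% rose at this threshold. At an adjusted p under 0.05 edgeR called 0 of them, while DESeq2 called Id1 and limma-voom 0. Medians over all tested targets were -0.03 for STAT5 and -0.16 for STAT3, against -0.01 for all genes. Without ac-WT mice 2 and 3 they were -0.08 and -0.31, against 0.02 for all genes. Many of these genes respond to other signals too.

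Id1, an inhibitor of helix-loop-helix factors, had 59.8 ± 21.8 CPM in ac-WT and 33 ± 5.70 CPM in knockout hearts (log2 fold change -0.86, SE 0.21, with an adjusted p of 0.173 in edgeR). Of the other STAT5 targets, the kinase genes Pim1 and Pim3 had log2 fold changes of -0.45 (SE 0.15) and -0.70 (SE 0.28), and Igfals, whose product carries IGF in blood, -0.79 (SE 0.32), with edgeR adjusted p of 0.222, 0.273 and 0.274. Igf1, the growth hormone target, was at 0.11 on the log2 scale (SE 0.26, adjusted p = 0.868 in edgeR), which turned to -0.20 without ac-WT mice 2 and 3. Of the STAT3 targets, Nfil3, a leucine zipper repressor, had -0.61 (SE 0.20) and Mt1, a metallothionein, -0.51 (SE 0.24). The immediate early genes Fos (-1.29, SE 0.48), Junb (-0.68, SE 0.27) and Zfp36 (-0.84, SE 0.30) spread widely, Fos from 17.5 to 127 CPM in ac-WT hearts alone. The edgeR adjusted p of these 5 STAT3 targets ran from 0.204 to 0.337. The 9 targets at an unadjusted p under 0.05 were picked with all mice, and without ac-WT mice 2 and 3 their log2 fold changes were smaller in size. Among STAT5 targets they were -0.52 for Id1, -0.20 for Pim1, -0.26 for Pim3 and -0.36 for Igfals. Among STAT3 targets they were -0.54 for Nfil3, -0.54 for Zfp36, -0.93 for Fos, -0.48 for Junb and -0.36 for Mt1. The medians of both whole lists, given above, moved further below 0 instead. Without these mice 1 pathway gene had an unadjusted p under 0.01 in edgeR, Id1. Under 0.05 it was joined by the target Nfil3 and the receptor genes Il6ra and Ifnar1, all lower.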

How the data were processed

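Whole-heart total RNA was made into stranded libraries and sequenced as unpaired reads. The authors trimmed the reads, mapped them with STAR and deposited raw counts, a whole number per Ensembl gene and heart, without normalization or filter. The submitters' processing notes name STAR, featureCounts and GRCm39, whereas the study's methods name mm9, so no gene coordinates are given apart from the RefSeq start windows (GRCm38.p6). Versions, annotation and strand setting of the counting are not given in the sources used here. Columns were assigned to mice by title, and 0 were left unused. Symbols were found for 57.8% of 53700 identifiers, and 3 of 216 listed genes were not matched.

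Depth was between 43393183 and 53754284 counts per heart, and the biological coefficient of variation was 26.5%, so the spread between mice limits all but the lowest genes. Counts were filtered with filterByExpr (minimum count 10), scaled by TMM and tested in edgeR 4.0.16 (R 4.3.3) by quasi-likelihood, two-sided, with no covariate and Benjamini-Hochberg adjustment over 17847 genes. SEs are the log2 fold change over the root of its F value. The study itself used Cuffdiff on FPKM. Alternatives were DESeq2 1.42.0, limma-voom (limma 3.58.1), total counts, RLE factors, no filter, a minimum of 10 counts per library, mouse number as a replicate block, 1 surrogate variable (sva 3.50.0), each mouse left out, and ac-WT mice 2 and 3 left out. Ratios of counts within a library, and the spread between mice under other scalings, were added after the data were seen. Tests were checked on simulated counts. Mice that share a number are different animals, and the numbers were not used to pair them.

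The members and all lists were chosen with earlier results of these data known. Genes named were the members, Cyb5r3, Leprot, the genes of the 6 correlation pairs, up to 5 genes of each pathway list by lowest unadjusted p under 0.05, and the 5 genes most like Cish and Lepr (mean of at least 1 CPM). Lep, Gh, Prl, Il6, Il6ra, Ifnar1, Lifr, Jak1 and Jak2 were named after their values were seen.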

Additional observations from a re-analysis of the deposited data

Results flagged for a closer look

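Of 20 sets of 6 hearts (10 genes in each group), 2 held a heart whose gap to its nearest neighbor was a larger share of the range than Dixon's critical value, and chance flags about 1 set in 20. Lepr in ac-WT mouse 5 was at 2.76 CPM, with a gap of 0.655 of the range, and without this mouse the log2 fold change of Lepr was -0.67. Ghr in ac-CYB5R3–KO mouse 2 was at 76.0 CPM, with a gap of 0.666 of the range, and without it the log2 fold change of Ghr was -0.13.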

How the results depend on the processing

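The list was chosen on the lower Cish and Lepr of these mice, so their direction and calls across settings are no sign of stability. Their log2 fold changes ran from -0.98 to -0.46 for Cish and from -0.94 to -0.58 for Lepr over all alternative fits. The log2 ratio of Lepr to Leprot counts differed by -1.06. Without single mice the fold changes ran from -0.98 to -0.68 and from -0.88 to -0.67, with 2 members at an unadjusted p under 0.01. Lepr differed more than Cish without ac-WT mice 2 and 3, by total counts and with 1 surrogate variable. By total counts 1 member (Cish) reached it, and 1 (Lepr) did with 1 surrogate variable or without ac-WT mice 2 and 3. DESeq2 put 2 members under an adjusted p of 0.05. Total counts gave log2 fold changes of 0.11 for Socs2, 0.25 for Ghr, 0.37 for Il6st, 0.25 for Stat3, 0.10 for Stat5a and 0.05 for Stat5b, of which the shift of the median gene is 0.26, and 1 surrogate variable gave 0.03 for Stat5a and -0.04 for Stat5b. The cause was not tested. Pathway genes lower at an unadjusted p under 0.01 numbered 2. They numbered 5 in DESeq2 and without a filter, 1 in limma-voom, by total counts and without ac-WT mice 2 and 3, and 8 under the replicate block. Leaving out single mice gave 1 to 6 (1 without ac-WT mouse 2 or ac-CYB5R3–KO mouse 2, 3 or 4, 6 without ac-WT mouse 4, 5 without ac-WT mouse 6 and 4 without ac-CYB5R3–KO mouse 1). DESeq2 put 1 of them under an adjusted p of 0.05. Of all genes, 820 had an unadjusted p under 0.01, against 1238 in DESeq2, 426 by total counts, 376 with 1 surrogate variable, 426 without ac-WT mice 2 and 3, and 463 to 1169 without single mice. At an adjusted p under 0.05 there were 18, against 437 in DESeq2, 2 in limma-voom, 8 by total counts, 8 with RLE factors, 35 without a filter, 2 with the replicate block, 3 with 1 surrogate variable, 7 without ac-WT mice 2 and 3, and 2 to 38 without single mice. The replicate block gave -0.82 for Cish and -0.81 for Lepr, and 6 of 12 mice correlated best with their own number. Deviations of same-numbered mice correlated by 0.133 on average (-0.160 to 0.360 over 6 pairs), against -0.0255 for the other 30 pairs, and not every pair was over 0.1, so the pairing is a hint at most and was not used. By total counts the r of Ghr and Igf1 (0.783) and of Stat5b and Cish (-0.682) in ac-WT hearts turned sign, and those of Cish with Socs2 (-0.689) and with Stat5b (-0.740) in ac-CYB5R3–KO hearts no longer passed. With 4 mice no two-sided exact p of rho can pass 0.05, and r without 2 mice is given with no p. Lepr and Socs1, with 40 to 135 and 48 to 110 counts per library, are the members that depth limits.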
